A study of Mus musculus with 2 samples.

Results

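The interferon-stimulated genes Isg15, Ifit1, Ifit2, Ifit3, Oasl2, Irf7, Stat2, Usp18 and Zbp1, were followed across the cell types of the mouse jejunal crypt. They are 9 of the 27998 genes in the count matrices and were taken as a named list, not by a cut on measured values. The list was chosen with earlier results of these data known. The cells came from jejunal crypts of 2 male 375KO mice, which lack miR-375 in the whole body. Both mice were 12 months old, of strain C57BL6/2J by the sample records and B6 albino by the protocol. The crypts were profiled by single-cell RNA-seq. The knockout is carried by every cell, so it is shared by all groups compared. Each mouse gave 1 library (replicate 1 and replicate 2), wild-type mice were not analysed here, and the comparisons are therefore among the 10 cell types that the authors annotated within 375KO mice, and between the mice.

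Interferons are secreted proteins that signal infection. Type I and type III interferons bind receptors that activate the kinases Jak1 and Tyk2. These in turn activate Stat2, which acts with Irf9 at a DNA element, the interferon-stimulated response element (ISRE), in front of responding genes. Irf7 is a transcription factor that drives interferon production, Usp18 is a brake on the receptor and removes the ubiquitin-like protein Isg15 from other proteins, and the Ifit proteins, Oasl2 and Zbp1 bind or respond to foreign nucleic acids. In the intestinal lining the epithelium is known to respond to interferon lambda, the type III form.

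The libraries held 2082 and 1193 annotated cells with 44017234 and 22163354 UMIs (unique molecular identifiers, which count RNA molecules rather than their PCR copies). The median cell had 16475 and 15232 UMIs, the median mitochondrial share was 10.2% and 5.55%, and no barcode was shared by the libraries. Of 56 cell type markers, 49 were highest in their own type in both mice. Other cells' RNA and depth touch some results. In replicate 2 the sum of enteroendocrine cells (EEC) held the 8 markers of intraepithelial lymphocytes (IEL) at 1281 CPM (UMIs per 1000000 UMIs of the sum). Of these 276 marker UMIs 1 cell held 141 and another 116, and 8 of the 20 EEC held any. In the same mouse 50 of 54 Paneth cells held a UMI of such a marker. In replicate 1 the IEL were shallow, with a median of 4110 UMIs.

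The promoters that carry an ISRE are shown first, since this is the element through which the pathway acts on its target genes. RefSeq windows from 250 bases before to 50 bases after the gene start (build GRCm38.p6) were found for 7 of the 9 members, with 2 windows for Ifit2. Usp18 and Zbp1 had none. The ISRE was searched on both strands as GAAA, any 2 bases and GAAA again, which on the reverse strand reads TTTC, any 2 bases and TTTC. It was present in 1131 of 32851 promoter windows of the same length (3.44%). Of the 8 member windows 4 carried it (50.0%), and these are printed 5′ to 3′ on the strand of the gene, with the bases of each match in capitals.
Isg15, chr4:156200769-156201068, minus strand: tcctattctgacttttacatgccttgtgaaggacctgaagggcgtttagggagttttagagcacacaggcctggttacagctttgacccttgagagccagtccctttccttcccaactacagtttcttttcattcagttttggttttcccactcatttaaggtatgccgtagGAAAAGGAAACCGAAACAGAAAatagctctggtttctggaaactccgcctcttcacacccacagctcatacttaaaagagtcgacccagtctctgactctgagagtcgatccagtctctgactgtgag
Ifit1, chr19:34640639-34640938, plus strand: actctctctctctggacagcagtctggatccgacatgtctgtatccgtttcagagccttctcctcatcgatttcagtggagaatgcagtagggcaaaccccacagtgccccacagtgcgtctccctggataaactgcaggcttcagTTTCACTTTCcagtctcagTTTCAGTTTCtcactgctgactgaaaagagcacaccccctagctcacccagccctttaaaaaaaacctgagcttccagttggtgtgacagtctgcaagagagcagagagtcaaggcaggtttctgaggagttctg
Ifit3, chr19:34583279-34583578, plus strand: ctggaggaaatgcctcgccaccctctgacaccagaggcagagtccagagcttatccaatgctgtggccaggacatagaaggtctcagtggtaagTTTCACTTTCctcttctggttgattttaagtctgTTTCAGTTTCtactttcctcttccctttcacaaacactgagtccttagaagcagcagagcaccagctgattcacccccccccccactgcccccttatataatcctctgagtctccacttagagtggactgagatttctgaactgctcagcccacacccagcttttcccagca
Stat2, chr10:128270248-128270547, plus strand: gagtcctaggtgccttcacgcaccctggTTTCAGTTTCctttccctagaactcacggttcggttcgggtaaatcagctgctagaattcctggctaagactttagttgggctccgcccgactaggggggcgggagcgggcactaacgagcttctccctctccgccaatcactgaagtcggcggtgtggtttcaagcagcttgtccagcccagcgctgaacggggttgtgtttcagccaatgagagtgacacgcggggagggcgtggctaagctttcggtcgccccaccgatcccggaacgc
In Isg15 there were 3 overlapping matches between 78 and 57 bases before the start. Ifit1 and Ifit3 each held 2 matches on the reverse strand with the same letters in the same order, TTTCACTTTC and then TTTCAGTTTC, and in Ifit1 they lay 104 to 95 and 85 to 76 bases before the start. In Ifit3 they lay 156 to 147 and 122 to 113 bases before the start. Stat2 held 1 match, which was the farthest from its start. The windows of Oasl2, Irf7 and Ifit2 held no match to these letters. A pattern of another interferon element, the gamma-activated site, TTC, any 3 bases and GAA, which reads the same on both strands, was found in 1 member window, the first of Ifit2, and in 2726 of the 32851 windows (8.30%). The 3 Ifit genes lie in the same stretch of chromosome 19 (Ifit2 34550694-34576419, Ifit3 34583531-34588731 and Ifit1 34640871-34650009, all on the plus strand of mm10).

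Across the epithelium the members were low in stem, transit-amplifying (TA) and Paneth cells in plain CPM and higher in enterocytes, goblet cells and tuft cells. Summed over the 9 members, replicate 1 had 17.9 CPM in stem cells (95% Poisson interval 12.3 to 25.3), and replicate 2 had 7.48 CPM (3.87 to 13.1). The values in TA cells, the dividing daughters of stem cells, were 21.8 (18.8 to 25.2) and 12.9 (10.2 to 16.2). Enterocytes, the absorptive cells, had 136 (131 to 141) and 75.5 (68.4 to 83.3), goblet cells had 154 (141 to 167) and 72.0 (61.3 to 84.0), and tuft cells had 148 (113 to 189) and 121 (94.3 to 154). Paneth cells, which secrete antimicrobial granules, had 16.5 (12.5 to 21.3) and 7.10 (4.83 to 10.1), values that the scaling of the tests below multiplies several fold. In each mouse stem, TA and Paneth cells were below enterocytes, goblet cells and tuft cells in plain CPM. Secretory progenitors had 36.9 and 17.9 CPM, from 17 and 4 UMIs, and goblet progenitors 50.3 and 26.4 CPM, while EEC had 88.6 and 130 CPM. The intervals cover counting error only.

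**Figure D1:**
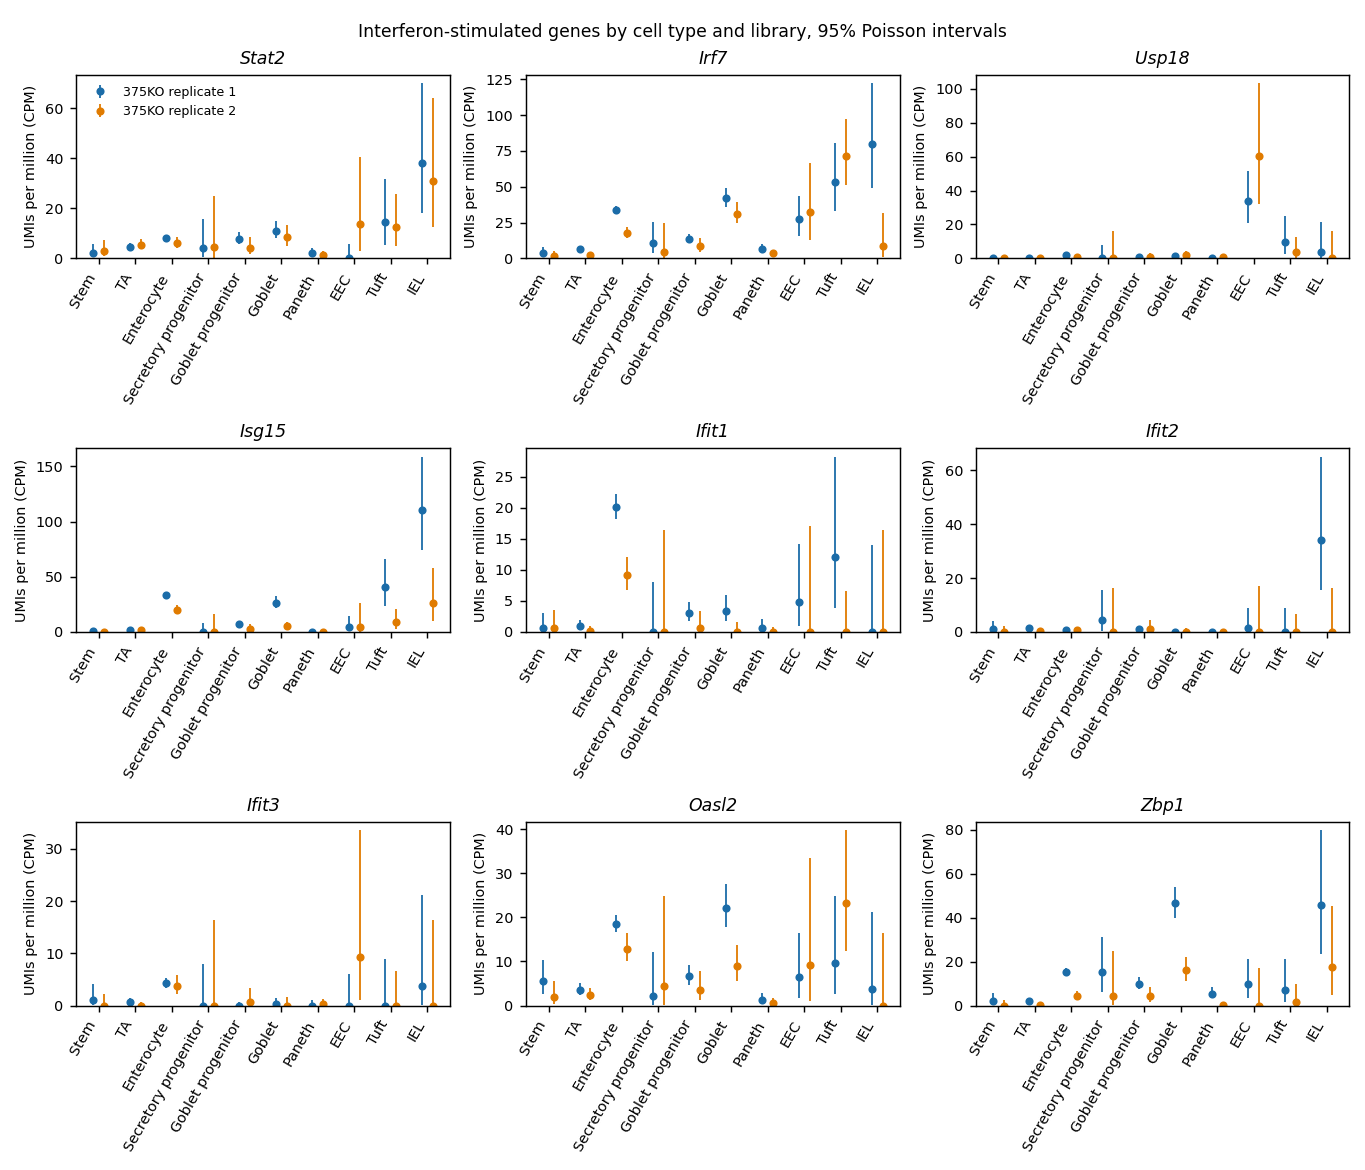
Level of each of the 9 genes (y axis, CPM, UMIs per 1000000, own scale in each panel) in the 10 annotated cell types (x axis), with 1 point for each library and bars for exact Poisson 95% intervals of counting error. Usp18 stands at 33.8 and 60.3 CPM in EEC, Ifit1 at 20.1 and 9.16 CPM in enterocytes and Zbp1 at 46.5 and 16.1 CPM in goblet cells, while stem cells sit at or under 5.61 CPM in every panel.

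Differences among the 9 epithelial types were tested on UMI counts summed per type and mouse (18 sums) with the quasi-likelihood test of edgeR, with Benjamini-Hochberg adjustment over the 11013 genes tested. Ifit2 and Ifit3 were too low for the filter on counts, and 7 members were tested. All 7 differed among the types, as did 77.3% of all genes tested, so the count itself does not set them apart. Each type was then compared with the mean of the other 8. The authors had drawn these types from the same expression values, and the p-values describe how steadily such types differ in 2 mice. Of these 7, Isg15, Ifit1 and Usp18 were at 0 UMIs in both mice in at least 1 type, so their fitted fold changes depend on the prior count of the fit. A call that they missed in this comparison therefore says nothing. A call that they passed also rests in part on the types at 0, and should be read beside the pooled comparison below.

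Enterocytes had 5 of the 7 tested members higher and none lower, where 31.3% of all genes were higher and 23.2% lower. They were Isg15, Ifit1, Oasl2, Irf7 and Zbp1. Under the stricter cell filter described below, Oasl2, Irf7 and Zbp1 were not called in enterocytes. Goblet cells also had 5 higher (17.8% of all genes), namely Isg15, Oasl2, Irf7, Zbp1 and Stat2. Tuft cells had 2 higher, Isg15 and Irf7 (10.0% of all genes), and none lower (5.98%). EEC had 1 higher, Usp18 (13.5%), and none lower (8.12%). TA cells had 3 lower, Zbp1, Oasl2 and Irf7 (13.6% of all genes), and stem cells had 2 lower, Zbp1 and Irf7 (10.1%). The Zbp1 call was lost under 2 of 9 alternatives in TA cells (adjusted p up to 1) and under 3 of 9 in stem cells (adjusted p up to 0.970). Goblet progenitors had Irf7 lower (3.22% of all genes), a call that was lost under 8 of 9 alternatives. In secretory progenitors edgeR called none higher (3.51% of all genes) or lower (1.26%). There 2 of the 7 had an unadjusted p under 0.05, and DESeq2 called 0, with 1 at an unadjusted p under 0.05. Paneth cells had Zbp1 and Irf7 higher (15.5%) after TMM scaling, which in Paneth cells, whose RNA is dominated by a few granule genes, multiplies values several fold (factors 0.156 and 0.121). In plain CPM Irf7 stood at 6.83 and 3.90 there and Zbp1 at 5.41 and 0.458 (19 and 2 UMIs), in each mouse above stem and TA cells but below the other epithelial cells together, and with library size alone the log2 fold change was -1.45 for Irf7 and -0.96 for Zbp1.

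The other epithelial cells were also pooled into 1 sum per mouse, a comparison added after seeing the data, in which the many enterocytes weigh most. Against this pool 8 of 8 members tested were lower in TA cells (26.6% of all genes were) and 7 of 8 in stem cells (22.8%), and none was higher (22.9% and 15.2%). Enterocytes had 5 of 9 higher (26.7%) and none lower (30.3%), namely Isg15, Ifit1, Ifit3, Oasl2 and Irf7. Goblet cells had 4 of 8 higher (17.3%) and 2 lower, Ifit1 and Ifit3 (19.5%), and goblet progenitors had 5 of 9 lower (15.4%) and none higher (8.98%). Of 8 tested, Irf7 was higher in tuft cells (9.18%) with none lower (13.0%), and EEC had Usp18 higher (11.7%) and Isg15 lower (13.7%). Paneth cells had 1 higher (11.8%) and 1 lower (14.9%), and secretory progenitors 2 lower (10.6%) and none higher (4.59%).

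Stat2 carries the interferon signal from the receptor to the nucleus. It had 156 UMIs in enterocytes of replicate 1, or 8.06 CPM, and 33 UMIs or 6.17 CPM in replicate 2. Goblet cells had 11.1 and 8.49 CPM and tuft cells 14.5 and 12.5 CPM, whereas TA cells had 4.38 and 5.42 and stem cells 2.24 and 3.12. Stat2 was thus detected in all these types, and the libraries differed little. In goblet cells it was 1.14 higher than the mean of the other types on the log2 scale (SE 0.33, edgeR, adjusted p = 0.00832), and without the mouse as a block this was not called (adjusted p = 0.0774). In enterocytes the log2 fold change was 0.54 (SE 0.28, adjusted p = 0.107) and did not pass.

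Irf7, the transcription factor, was highest among epithelial types in tuft cells, which sense luminal signals, in plain CPM. The 40 tuft cells of replicate 1 held 22 UMIs of it, or 53.2 CPM (33.3 to 80.5), and the 38 of replicate 2 held 40, or 71.4 CPM (51.0 to 97.3). Goblet cells followed with 42.3 and 31.3 CPM, then EEC with 27.4 and 32.5 and enterocytes with 33.9 and 17.9, and the neighbours in this order overlapped from goblet cells to enterocytes. Goblet progenitors had 13.6 and 8.40 CPM, TA cells 6.40 and 2.62 and stem cells 3.92 and 1.87. In TMM-scaled CPM, as used by the tests, tuft cells had 35.1 and 50.3, and in replicate 1 goblet cells (42.6) and Paneth cells (43.9) were above them. The log2 fold change against the mean of the other types was 2.01 in tuft cells (SE 0.28, edgeR, adjusted p = 2.29e-06), 1.73 in goblet cells (SE 0.20, adjusted p = 2.80e-08), -2.21 in TA cells (SE 0.27, adjusted p = 1.07e-07) and -2.80 in stem cells (SE 0.41, adjusted p = 6.17e-06). These 4 calls held under all 9 alternatives that gave a test, which leaves out the runs without a mouse. In enterocytes Irf7 was 1.07 higher (SE 0.18, adjusted p = 9.13e-06), but under a stricter cell filter the difference was -0.043 (adjusted p = 0.965). That filter, at least 2000 genes and at most 10% mitochondrial reads, left 148 of 931 enterocytes of replicate 1. Irf7 overlaps Phrf1 on the opposite strand, as Usp18 overlaps Gm44148. How counting treated such overlaps is not stated, and their effect on either member was not tested.

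Usp18, which removes Isg15 from proteins and restrains the interferon receptor, had its own pattern. EEC, the hormone-secreting cells, held it in 13 of 54 cells of replicate 1, with 21 UMIs or 33.8 CPM (20.9 to 51.7), and in 8 of 20 cells of replicate 2, with 13 UMIs or 60.3 CPM (32.1 to 103). No single EEC held more than 4 UMIs. Tuft cells, next in order, had 9.67 and 3.57 CPM, with all UMIs of each mouse in 1 cell. Enterocytes had 2.22 and 0.748 CPM, and the other epithelial types had at most 1.79 CPM.

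The level of Usp18 in EEC was 24.7 times that in all other epithelial cells of replicate 1 (exact interval 14.3 to 41.3) and 93.6 times in replicate 2 (40.5 to 215). The test against the mean of the other types was passed (edgeR, adjusted p = 2.19e-08) and held under all 9 alternatives, with the adjusted p-value between 3.55e-18 and 1.35e-05. Its fitted fold is not given, because stem cells and secretory progenitors had no Usp18 UMI in either mouse. The share of EEC with a UMI was 24.1% (exact interval 13.5 to 37.6) and 40.0% (19.1 to 63.9), at median depths of 7400 and 9390 UMIs. In stem cells it was 0 of 139 and 0 of 117 cells at 12282 and 12559 UMIs. With each cell thinned to 5000 UMIs the share was 11.3% and 25.0% in EEC and 0 in stem cells. In replicate 2, 5 of the 8 EEC with Usp18 and 3 of the 12 without it held an IEL marker UMI, and in replicate 1, 0 of 13 and 2 of 41 did. The amount of these markers was alike in the 2 groups of replicate 2, at 132 UMIs with Usp18 and 144 without it. Most of it lay in 1 cell of each group, with 116 and 141 UMIs. Annotated IEL held 1 and 0 Usp18 UMIs, and the 12 EEC of replicate 2 with no IEL marker UMI had 7 Usp18 UMIs. Of hormone genes chosen after their values were seen, Cck was at 33134 and 50030 CPM in EEC with Usp18, against 8742 and 6495 CPM in those without it. Chgb, a granule protein, was at 18760 CPM with Usp18 and 10520 without it in replicate 1, but at 3648 and 9176 CPM in replicate 2. The other members had fewer reads in EEC. Irf7 had 17 and 7 UMIs, or 27.4 and 32.5 CPM, with a ratio to the other epithelial cells of 1.18 (0.685 to 1.90) in replicate 1 and 2.76 (1.10 to 5.76) in replicate 2. Ifit3 had 0 and 2 UMIs, with a ratio of 9.17 (1.04 to 37.3) in replicate 2, and Isg15 had 3 and 1. In EEC 3 counts stand for 4.83 and 13.9 CPM.

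Isg15, the ubiquitin-like protein, was highest among epithelial types in enterocytes and tuft cells. Enterocytes had 643 UMIs in replicate 1, or 33.2 CPM, and 107 in replicate 2, or 20.01 CPM. Tuft cells had 41.1 and 8.93 CPM, goblet cells 26.4 and 5.36, goblet progenitors 7.63 and 2.999, TA cells 2.13 and 1.57, and stem cells 1.12 and 0. Secretory progenitors had 0 UMIs in both mice, which allows up to 6.52 and 13.4 CPM (3 counts), so in replicate 2 a level as in goblet progenitors could not have been seen there. In the tuft cells of replicate 1, 13 of the 17 UMIs came from 1 cell, and without it the level was 9.89 CPM. The tuft call (edgeR, adjusted p = 0.000174) was lost in 2 of 9 alternatives and the goblet call (adjusted p = 7.26e-08) in 1 of 9. Goblet cells had 1.46 times the level of the other epithelial cells in replicate 1 (1.17 to 1.80). In replicate 2 they had 0.832 times that level (0.419 to 1.51), with 6 of the 12 UMIs in 1 cell. The enterocyte call (adjusted p = 8.84e-13) held in all 9, and in each mouse enterocytes exceeded all other epithelial cells, by 4.45 times (3.77 to 5.27) and 10.4 times (6.93 to 15.9).

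Ifit1, which binds foreign RNA, was concentrated in enterocytes, as was Ifit3. In replicate 1 enterocytes held 390 UMIs of it, or 20.1 CPM (18.2 to 22.2), and all other epithelial cells held 48. In replicate 2 enterocytes held 49, or 9.16 CPM (6.78 to 12.1), and the others 3. The ratio to the other epithelial cells was 10.2 (7.57 to 14.1) and 50.7 (16.3 to 254). The enterocyte call (edgeR, adjusted p = 2.23e-11) held in all 8 alternatives that tested it. Goblet cells had 3.44 and 0 CPM, and the 16 UMIs of goblet progenitors in replicate 1 all came from 1 cell. Ifit3, of the same family, had 82 of its 90 epithelial UMIs in enterocytes of replicate 1 (4.23 CPM) and 20 of 24 in replicate 2 (3.74 CPM), with ratios of 12.9 (6.25 to 30.9) and 15.5 (5.20 to 62.4) to the other epithelial cells. Ifit2 was near its limit of detection, with 35 and 8 epithelial UMIs, and showed no such pattern. Its ratio in enterocytes was 0.657 (0.298 to 1.38) and 1.86 (0.289 to 9.57). How counting treated reads that fit near-identical copies is not stated. The copies Ifit1bl1 and Ifit3b had 277 and 17 UMIs in replicate 1 and 84 and 5 in replicate 2.

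Oasl2, a relative of the antiviral oligoadenylate synthetases, had 18.4 and 12.9 CPM in enterocytes, 22.2 and 8.94 in goblet cells and 9.67 and 23.2 in tuft cells. These 3 types overlapped. TA cells had 3.55 and 2.27 CPM. The log2 fold change was 1.69 in enterocytes (SE 0.24, edgeR, adjusted p = 3.07e-07), 1.80 in goblet cells (SE 0.28, adjusted p = 5.40e-06) and -1.50 in TA cells (SE 0.37, adjusted p = 0.00192). The enterocyte and TA calls were each lost in 1 of 9 alternatives. For enterocytes this was the stricter cell filter (0.45, edgeR, adjusted p = 0.378). For TA cells it was the thinning to 5000 UMIs (-0.56, adjusted p = 1). In tuft cells the log2 fold change was 1.36 (SE 0.48) and missed the threshold at an adjusted p of 0.0504.

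Zbp1, a sensor of left-handed nucleic acids that can start cell death, was highest in goblet cells among epithelial types. The 176 Zbp1 UMIs of goblet cells in replicate 1 gave 46.5 CPM (39.9 to 53.9), and the 36 in replicate 2 gave 16.1 CPM (11.3 to 22.3). Enterocytes had 15.1 and 4.30 CPM and secretory progenitors 15.2 and 4.46, from 7 and 1 UMIs. In each mouse goblet cells exceeded the other epithelial cells, by 4.63 times (3.85 to 5.54) and 8.81 times (5.39 to 14.4). The log2 fold change against the mean of the other types was 3.06 (SE 0.23, edgeR, adjusted p = 2.23e-12) and was called in all 9 alternatives. The enterocyte call (1.06, SE 0.24, adjusted p = 0.000359) was lost in 3 of them, with adjusted p up to 0.628 under the stricter cell filter. Of goblet cells, 39.0% (exact interval 33.2 to 45.0) and 23.2% (16.4 to 31.1) held a Zbp1 UMI, against 18.7% and 3.93% of enterocytes. Thinned to 5000 UMIs a cell, these were 20.7% and 4.35% of goblet cells and 7.53% and 2.09% of enterocytes. The order was the other way round for Isg15, found in 17.0% and 4.35% of goblet cells and in 27.1% and 11.8% of enterocytes (thinned, 9.42% and 2.17% against 12.2% and 7.07%).

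Within enterocytes the members were unevenly spread among cells, and some cells held several of them. In replicate 1, 50% of the 2632 member UMIs lay in 65 of 931 enterocytes, and in replicate 2, 50% of 404 lay in 12 of 382. No member at all was detected in 333 (35.8%) and 243 (63.6%) enterocytes, whereas 51 (5.48%) and 5 (1.31%) held at least 5 of the 9. The enterocyte with the most held 131 member UMIs of 14435 in all and had every member, among them Ifit1 with 59, Isg15 with 33 and Ifit2 with 10 UMIs. The cell with the most in replicate 2 held 58 UMIs from 7 members. After each cell was thinned to 5000 UMIs, 11 and 3 enterocytes held at least 5 members.

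The few cells with at least 5 members carried unequal parts of each gene. In replicate 1 they held 63.6% of the enterocyte UMIs of Ifit1, 63.4% of Ifit3, 67.4% of Usp18 and 49.3% of Isg15, but 23.8% of Irf7, 25.6% of Stat2 and 27.0% of Zbp1. In replicate 2 they held 44.9% of Ifit1, 12 of 20 UMIs of Ifit3, 4 of 4 of Usp18 and 51.4% of Isg15, but 12.5% of Irf7, 6.06% of Stat2 and 47.8% of Zbp1. Of the genes given here, Irf7 and Stat2 had the smaller parts in these cells in both mice, and Zbp1 did in replicate 1. Since these cells were chosen for holding members, the shares are a description. Some pairs of members were also found in the same cells. Of the 130 enterocytes of replicate 1 with Ifit1, 59.2% also had Isg15 and 50.0% Oasl2, against 21.8% and 16.7% of the 801 without Ifit1. In replicate 2, 43.5% and 52.2% of the 23 cells with Ifit1 had them, against 9.75% and 7.80% of the 359 without. Median depths with and without Ifit1 were 16969 and 16988 UMIs in replicate 1 and 11597 and 13570 in replicate 2, so the cells with Ifit1 were not deeper. Isg15 and Stat2 did not pair alike in the mice. Stat2 was in 17.9% of enterocytes with Isg15 and 12.5% without it in replicate 1, but in 4.44% and 8.31% in replicate 2.

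Genes outside the list went along in these cells. The 50 other interferon-stimulated genes in the matrices had a summed level of 1584 CPM in replicate 1 enterocytes with no member, 2256 with 1 or 2, 3176 with 3 or 4 and 4114 with at least 5, and in replicate 2 of 1254, 1651, 2685 and 6490. Much of this sum is Ifi27l2b, which went from 637 to 1590 CPM in replicate 1. Of genes chosen after their values were seen, the antiviral gene Rsad2 was at 0.786 and 0.292 CPM in cells with no member and at 17.3 and 36.7 CPM in cells with at least 5. Ifit1bl1, the near copy of Ifit1 named above, went from 4.09 and 3.51 to 86.5 and 275 CPM, and its counts may not be independent of those of Ifit1. The interferon gamma list (19 genes, members left out) went from 212 and 158 to 407 and 642 CPM. The fat absorption gene Apoa4, also chosen after its values were seen, moved too, from 1035 and 383 to 5282 and 8947 CPM, and the median mitochondrial share from 11.7% and 7.30% to 15.2% and 11.02%. The part of maturity or of mitochondrial share in this pattern was not tested. The 8 IEL markers were at 0 UMIs in the 51 cells of replicate 1 and at 1 UMI in the 5 of replicate 2. In replicate 2 their level was highest, 171 CPM, in enterocytes with no member. In replicate 1 it was 14.9 CPM in those with no member, 60.3 with 1 or 2 and 27.5 with 3 or 4.

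**Figure D2:**
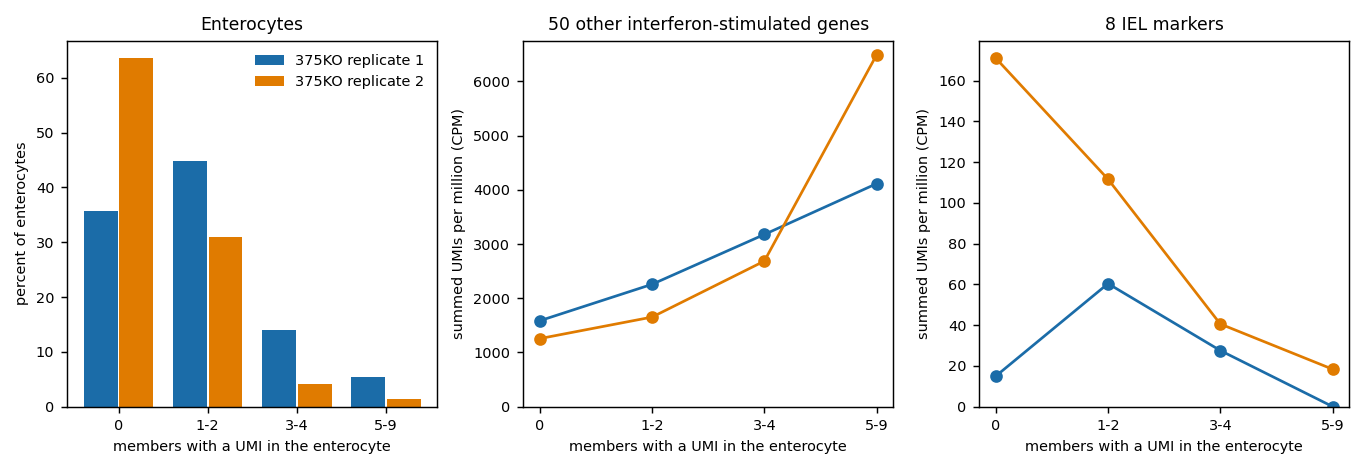
Enterocytes grouped by how many of the 9 genes had a UMI in the cell (x axis), for each library. The panels give the percent of enterocytes in each group, the summed level of 50 other interferon-stimulated genes and that of 8 IEL markers (CPM, UMIs per 1000000). The interferon-stimulated sum goes from 1584 to 4114 CPM in replicate 1 and from 1254 to 6490 CPM in replicate 2, while IEL markers end at 0 and 18.3 CPM. The groups on the right hold 51 and 5 cells.

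Such cells were also seen outside the enterocytes. In goblet cells 4 of 277 and 1 of 138 held at least 5 members, and in replicate 2 that 1 cell held 36 of the 161 member UMIs and 19 of the 70 Irf7 UMIs. Without it goblet Irf7 of replicate 2 was 22.9 CPM. In tuft cells 1 of 40 in replicate 1 held 25 of the 61 UMIs. Of goblet progenitors, 3 of 162 (1.85%) in replicate 1 held at least 5 members, and of IEL 2 of 50 (4.00%) did, while none did in replicate 2. No stem cell of either mouse and 1 of the 320 TA cells of replicate 1 held at least 5.

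IEL, the T cells that sit in the epithelium, had the highest levels of some members, from few reads. The 29 Isg15 UMIs of replicate 1 gave 110 CPM (74.0 to 159), and the 6 of replicate 2 gave 26.6 CPM (9.77 to 57.9). Stat2 had 10 and 7 UMIs, or 38.1 CPM (18.3 to 70.0) and 31.1 CPM (12.5 to 64.0). Isg15, Stat2, Zbp1 and Irf7, 4 of the 7 tested, were higher than the mean of the 9 epithelial types (16.4% of all 11402 genes). The log2 fold change was 2.30 for Stat2 (SE 0.52, edgeR, adjusted p = 0.000762) and 2.20 for Zbp1 (SE 0.49, adjusted p = 0.000633). The Zbp1 call was lost under 3 of the 8 alternatives that tested it (adjusted p up to 0.114) and the Stat2 call under 1 of 8 (adjusted p = 0.0743). The Irf7 call (1.33, SE 0.45, adjusted p = 0.0226) rested on replicate 1, where it had 80.0 CPM, against 8.87 CPM in replicate 2, and without replicate 1 the difference was -0.81. Under the stricter cell filter 6 of the 50 IEL of replicate 1 remained, under the minimum of 10 for a sum, and edgeR called 0 members, with 3 of the 8 tested at an unadjusted p under 0.05. DESeq2 was not run on that subset. Ifit2 had 9 UMIs in 6 IEL of replicate 1, or 34.3 CPM (15.7 to 65.1), and 0 in replicate 2. Ifit1, which led in enterocytes, had 0 UMIs in the IEL of both mice, which allows up to 11.4 and 13.3 CPM.

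Over all epithelial cells each of the 9 members was higher in replicate 1 than in replicate 2, where 67.2% of all genes tested were, and in enterocytes each was as well, where 48.6% of all genes were. With 1 library a mouse this was not tested. The ratio of replicate 1 to replicate 2 in enterocytes was 3.52 for Zbp1 (exact interval 2.30 to 5.64), 2.20 for Ifit1 (1.63 to 3.02), 1.89 for Irf7 (1.52 to 2.36), 1.66 for Isg15 (1.35 to 2.06) and 1.43 for Oasl2 (1.10 to 1.88), beside a median of 0.985 over all genes. For Usp18 the ratio was 2.97 (1.08 to 11.4), from 43 and 4 UMIs, and for Stat2, Ifit2 and Ifit3 the interval included 1. In goblet cells the ratio was 4.93 for Isg15 (2.70 to 9.86) and 2.89 for Zbp1 (2.01 to 4.26), beside a median of 1.08. EEC had 88.6 CPM in replicate 1 and 130 in replicate 2 as a sum, from 55 and 28 UMIs. The interval of this ratio included 1 (0.682, 0.425 to 1.12).

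No member reached 50 CPM over the epithelium, the level set for a count of genes that set the mice apart, and 0 of 9 were counted (10.6% of the 2644 genes at that level were, 6.92% with replicate 1 higher). At a minimum of 10 CPM, Isg15, Ifit1 and Zbp1 were at least 2-fold higher in replicate 1 in 5, 7 and 9 of the 9 epithelial types (7.85% of 7449 genes differed so in at least 5 types, 5.44% with replicate 1 higher). Some of these types rested on very few UMIs. Isg15 had 2 against 0 in stem cells and 1 against 0 in Paneth cells, Ifit1 had 2 against 0 in Paneth cells and Zbp1 had 3 against 1 in tuft cells. With 0 read as up to 3 counts the first 3 of these are not 2-fold differences, and Isg15 would not reach 5 types. The libraries also differed in depth and mitochondrial share, and these cannot be told apart from the mouse.

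**Figure D3:**
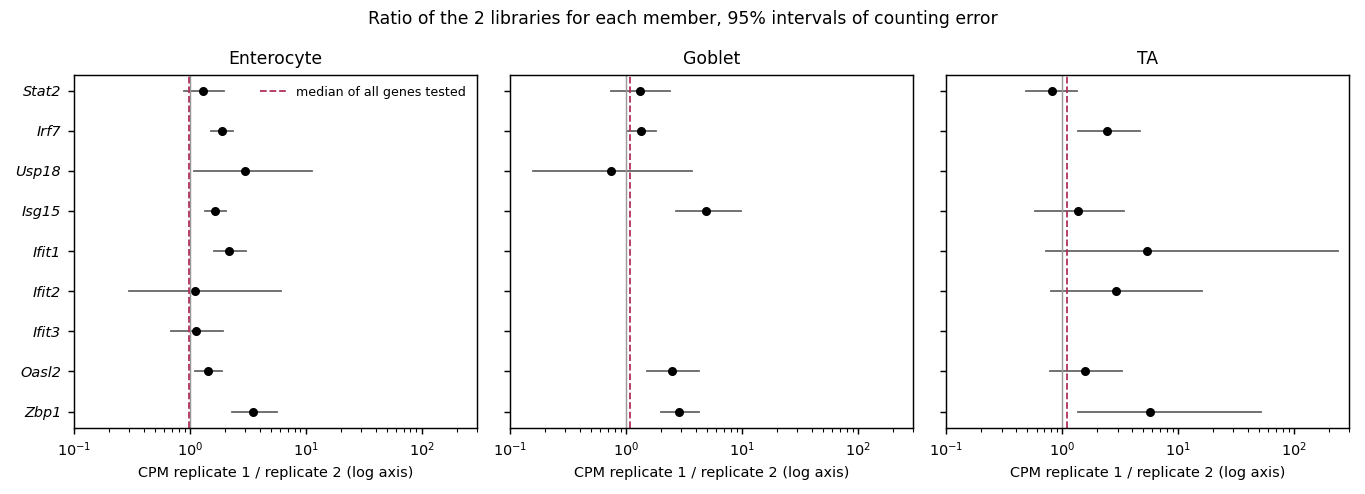
Ratio of the level in replicate 1 to that in replicate 2 (x axis, log scale) for each gene in enterocytes, goblet cells and TA cells, with exact 95% intervals of counting error as lines. The dashed line is the median of all genes tested. Genes with no UMI in a library have no point. In enterocytes every point lies above the median of 0.985, with Zbp1 at 3.52.

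The rest of the pathway was described from fixed gene lists. Some lists share genes, so their counts are not independent. Uba7, Ube2l6, Herc6, Trim25, Ddx58, Ifih1, Dhx58 and Adar were also among the other interferon-stimulated genes. Irf1 and Irf8 were also on the interferon gamma list, as was Socs1 of the negative regulators. No interferon ligand could be tested. Of 10 ligand genes, Ifnk had 38 UMIs and Ifng 8 in all annotated cells, and the next in order, Ifna1 and Ifnb1, had 0. The filter on counts was passed by 5 of 6 receptor genes. In Paneth cells 2 of these were higher and 3 lower (15.5% and 11.4% of all genes). Of the 5 receptor genes tested, 4 were higher in enterocytes (31.3% of all genes were) and none lower. They were Ifngr1 and Ifngr2, the receptor of interferon gamma, at 123 and 135 CPM and at 160 and 153 CPM, Il10rb, shared by the interferon lambda and interleukin 10 receptors, at 62.9 and 48.1 CPM, and Ifnar1 of the type I receptor at 16.2 and 10.7 CPM. Ifnar2 had 4.34 and 2.99 CPM there and was lower in TA cells (log2 fold change -1.33, edgeR, adjusted p = 0.0126). Ifnlr1, the specific chain of the interferon lambda receptor, was below the filter, with 4.65 and 4.49 CPM in enterocytes and 0 UMIs in IEL of both mice.

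Of 13 genes for kinases, Stat proteins and interferon regulatory factors, 9 were higher and 2 lower in enterocytes (31.3% and 23.2% of all genes). Irf8 was 1.22 higher on the log2 scale (118 and 75.9 CPM), Jak2 1.21 (35.7 and 26.2 CPM), Stat3 1.06, Irf1 0.99, Irf9 0.94, Tyk2 0.68 and Irf2 0.47. Irf2bp1 and Irf2bp2, whose products bind Irf2, were lower (-1.16 and -0.41), Jak1 (0.21) and Irf3 (0.17) did not pass, and Irf5 was not tested. In goblet cells only Stat3 was higher and only Irf2bp2 lower of these 13 (17.8% and 11.4% of all genes). Of 16 sensors of nucleic acids and their adaptors, 15 were higher in enterocytes and 1 lower (31.3% and 23.2% of all genes). Nlrp6, an inflammasome sensor, had 259 and 221 CPM, Casp8 69.4 and 49.5, Mavs, the adaptor of RNA sensors, 35.4 and 30.7, and Ifih1 32.8 and 20.2. In TA cells 3 were higher and 3 lower, near the 19.2% and 13.6% of all genes, and in tuft cells none was called (10.0% and 5.98%).

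Of 4 genes of the machinery that attaches Isg15 to proteins, 3 were higher in enterocytes (31.3% of all genes) and 3 in goblet cells (17.8%), with none lower. Uba7, its activating enzyme, had 12.3 and 9.16 CPM in enterocytes and 5.09 and 4.20 in TA cells. Ube2l6, its conjugating enzyme, had 12.7 and 12.3 CPM in enterocytes against 2.73 and 1.57 in TA cells. It was called higher in enterocytes (edgeR, adjusted p = 4.87e-09), and its fitted fold is not given, because secretory progenitors and Paneth cells had no UMI of it in either mouse. Herc6, the ligase, had 6.40 and 4.86 CPM, and Trim25 had 39.9 and 35.0 and missed the threshold in enterocytes (log2 fold change 0.35, edgeR, adjusted p = 0.0584). Of 9 negative regulators, mostly phosphatases and Socs genes, 3 were higher in enterocytes and 1 lower, near the 31.3% and 23.2% of all genes. Ptpn6 stood at 351 and 298 CPM in tuft cells and 13.0 and 13.1 in enterocytes, Ptpn1 was lower in enterocytes (-0.45), and Ptpn2 (0.01) and Ptpn11 (0.02) did not pass.

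Of 38 other interferon-stimulated genes tested, 28 were higher and 3 lower in enterocytes (31.3% and 23.2% of all genes), 21 and 2 in goblet cells (17.8% and 11.4%), and 1 and 11 in TA cells (19.2% and 13.6%). Ifi27l2b had 1039 and 444 CPM in enterocytes, 1325 and 694 in goblet cells and 157 and 62.3 in TA cells. Lgals9, a galectin, had 234 and 285 CPM in enterocytes, 242 and 283 in goblet cells, 241 and 277 in TA cells, 121 and 102 in EEC and 28.4 and 20.2 in Paneth cells. It was called higher in enterocytes (log2 fold change 0.57, edgeR, adjusted p = 0.000118) and goblet cells (0.71) and lower in EEC (-1.32). The interferon-induced membrane proteins ran the other way. Ifitm3, which blocks virus entry, had 862 and 981 CPM in stem cells, 224 and 368 in TA cells and 7.49 and 19.4 in enterocytes, and Ifitm2 had 679 and 666 CPM in stem cells and 63.9 and 140 in enterocytes. In enterocytes they were lower by 3.92 and 1.62 on the log2 scale. Of 8 genes tested of the interferon gamma list, 7 were higher in enterocytes and none lower (31.3% and 23.2% of all genes). Its genes of highest level were Irf8 and Irf1, both given above, Irgm1 (8.21 and 9.54 CPM, not called in enterocytes) and Ifi47 (13.9 and 9.72 CPM, log2 fold change 0.70). An ISRE match was present in 23 of 51 promoter windows of the other interferon-stimulated genes (45.1%), 9 of 17 of the gamma list (52.9%) and none of 5 of the receptors, beside 3.44% of all windows.

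**Figure D4:**
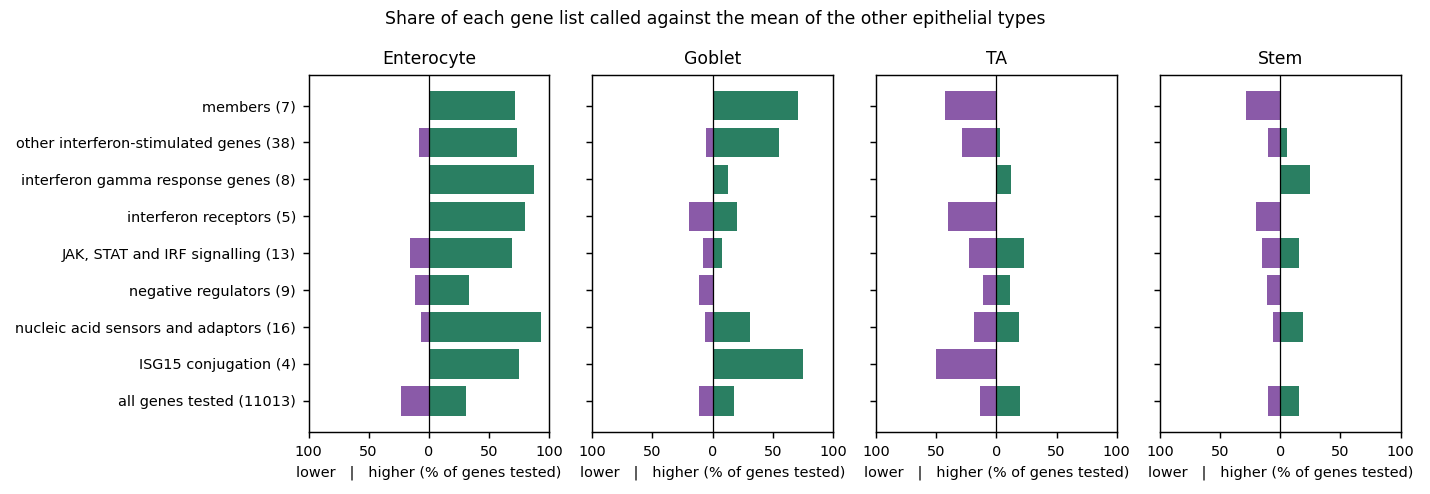
Percent of the tested genes of each list that were higher (right) or lower (left) in a cell type than the mean of the other epithelial types, at an adjusted edgeR p under 0.05, with the number tested in brackets and all 11013 genes as the last bar. In enterocytes 28 of 38 other interferon-stimulated genes and 15 of 16 sensors were higher, whereas in TA cells 1 and 3 were. Some genes are on several lists and count in each.

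The genes whose levels over the 18 sums were most like the tested members were found by Pearson's r with the mean of the members, each scaled to the same spread and with each mouse centred. The 10 nearest were Lrp10 (r = 0.96), Cdhr5 (0.92), Mpdu1 (0.91), Gde1 (0.90), Wsb2 (0.90), Mapk3 (0.90), Mien1 (0.89), Sdcbp2 (0.89), Rab11a (0.89) and H2-D1 (0.89). The points share libraries and scaling factors. Gde1 had 120 and 46.7 CPM in enterocytes, 196 and 157 in tuft cells and 1.07 and 0.525 in TA cells. Cdhr5, a protein of the brush border, had 478 and 364, 370 and 548, and 78.0 and 54.7 CPM in the same types. H2-D1, a class I antigen presenting molecule, was the only gene of these 10 higher in replicate 1 by over 2-fold in each of enterocytes, goblet cells, TA and stem cells (1102 and 305 CPM in enterocytes). None of the 9 promoter windows found for these genes held an ISRE match, beside 3.44% of all windows. So few windows cannot show a difference from that share. Among the members, r with their own mean went from 0.54 for Usp18 to 0.91 for Irf7.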

How the data were processed

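Male 375KO mice gave 2 libraries made with a 10x Genomics 3′ kit. The authors aligned reads to mm10 with Cell Ranger 3.0.1, per the labels, and deposited UMI counts per gene and barcode. The methods name SoupX for removal of free RNA, without saying to which deposited matrix it applies. The stored values are whole numbers. The authors removed doublets and cells with few genes or a high mitochondrial percent, integrated the samples in Seurat (3.2.1 by the labels, a later version by the methods), named clusters (cluster_named), and deposited an annotation with total counts and the mitochondrial percent of each cell. Annotations were joined by cell order. Tables also holding 2937 cell columns of another series were used only for order and annotation, and the normalised scores and doublet calls were not used.

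Counts were summed per annotated type and mouse, leaving out sums under 10 cells. After filterByExpr and TMM scaling the sums were fitted with edgeR 4.0.16 (glmQLFit and glmQLFTest, robust, type and mouse as terms, 18 epithelial sums, or 20 with IEL, residual degrees of freedom 8, from 2 mice), and a threshold of 0.05 after Benjamini-Hochberg adjustment over all genes tested. The fit was tested on simulated data. The replicate number marks the mouse, so the mouse term is the pairing. Alternatives were DESeq2 1.42.0, library size alone, no filter, no mouse term, cells thinned to 5000 UMIs, a stricter cell filter, Paneth cells left out and each mouse left out. Alternatives added after seeing the data were cells with an IEL marker UMI left out and the other epithelial cells pooled. Counts of calls kept or lost out of 8 or 9 alternatives include these added ones. They leave out the runs without a mouse, which gave a difference and no test. Levels are UMIs per 1000000 (CPM) with exact Poisson 95% intervals, shares carry Clopper-Pearson intervals, ratios carry exact conditional intervals, and 0 was read as up to 3 counts. These cover counting error only.

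All 9 members were named. From each list the 4 genes with the highest mean epithelial CPM were named, with receptor, conjugation and JAK, STAT and IRF genes in the matrices, apart from some that are counted but not reported here by name, and the 10 genes most like the members. Exceptions are marked in the text. Members and lists were chosen with earlier results of these data known. Positions are from GENCODE vM21 and promoters from RefSeq.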

Additional observations from a re-analysis of the deposited data

Results flagged for a closer look

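Barcodes that the authors did not keep held the members too. In replicate 1 the 5583 such barcodes, with a median of 1581 UMIs, had 2250 member UMIs, or 111 CPM, against 90.3 CPM in the kept cells. In replicate 2 the 58 such barcodes had 17, or 11.2 CPM, against 38.1 CPM. No group of samples was large enough to look for a sample far from the others.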

How the results depend on the processing

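All 7 tested members differed among the epithelial types in each alternative that tested them, and the 15 higher calls ranged from 11 to 18. The 6 lower calls became 10 with DESeq2, 3 without the mouse as a block (pairing), 2 with cells thinned to 5000 UMIs and 26 against the pooled cells. The 4 IEL calls became 2 without the block, 1 thinned, 0 under the stricter filter and 2 pooled. Without the block 8 of 25 calls were lost and higher calls numbered 12. At a 10 CPM minimum 3 members rather than 0 set the mice apart, Isg15 only through types with 0 UMIs in replicate 2. Log2 fold changes turned for Irf7 in enterocytes (-0.043, stricter filter), for Irf7 (-1.45) and Zbp1 (-0.96) in Paneth cells with library size alone, for Zbp1 there when thinned (-5.34), and for Irf7 in IEL when thinned (-0.47) or strictly filtered (-0.97). With either mouse left out, a value with no test, Irf7 in IEL ranged from -0.81 to 1.78. No other call changed sign in those runs. The stricter filter left 148 of 931 and 307 of 382 enterocytes. Under it the enterocyte calls of Oasl2 (0.45), Zbp1 (0.26) and Irf7 were lost together, while those of Isg15 (3.56) and Ifit1 (2.31) held. The cause of these changes was not tested. Library size alone moved the all-gene median log2 fold change to -3.20 in Paneth cells, 0.71 in EEC, 0.61 in tuft cells, 0.56 in TA and 0.40 in stem cells. The share of calls that were higher there went from 57.7% to 1.47%, 62.5% to 98.2%, 62.6% to 96.4%, 58.5% to 92.0% and 60.4% to 87.6%. In enterocytes and goblet cells the median stayed at 0.082 and -0.085. Depth limits Ifit2, Ifit3 and every member in secretory progenitors, EEC, tuft cells and IEL.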
